A study of Mus musculus with 6 samples.

Results

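The regions described here are the widest stretches of the genome called as occupied by SALL4 in mouse embryonic stem cells. They are 901 intervals of 800 bp or more in wild-type replicate 1 that overlapped an interval of 800 bp or more in wild-type replicate 2 and no interval of the Sall4 knockout lists. Only chromosomes 1 to 19 were used. The 901 regions are 1.71% of the 52825 autosomal intervals of replicate 1, which listed 55058 intervals in all. Read from replicate 2, the same rule took 902 of 46298 autosomal intervals (1.95%), because 1 region was split into 2 wide intervals there. The regions were chosen by their called width, their presence in both wild-type lists and their absence from the knockout lists, so these values are properties of the choice and are given as descriptions without a test.

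SALL4 is a zinc-finger protein of the spalt family that binds short DNA sequences rich in A and T and recruits the NuRD complex, a nucleosome remodeller with histone deacetylases. In pluripotent cells it is known for holding back differentiation genes and for its place in the network of OCT4, SOX2 and NANOG. A peak caller reports 1 interval where enrichment is unbroken, and writes a further line for each local maximum, called a summit. A wide interval can therefore hold 1 broad maximum or several neighbouring ones.

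Occupancy was measured by CUT&RUN, in which an antibody brings a nuclease to its target in permeabilised cells and the released DNA fragments are sequenced. The cells were grown in 2i medium with the cytokine LIF. The wild-type libraries came from a line whose Sall4 alleles are floxed (Sall4F/F), which the submitters call wild type, and the knockout libraries from a Sall4-/- line. Each line gave 2 SALL4 libraries, all 4 made with the same antibody. Each genotype is thus 1 line, and the labels do not say whether the 2 libraries came from separate cultures. The 2 IgG samples, 1 per line, were not analysed here.

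Sequence was at hand only for promoter windows, each running from 250 bases before to 50 after a transcription start. Of 31396 such windows at hand on the autosomes, 9 overlapped a wide region (0.0287%) and 918 overlapped a narrower shared interval (2.92%). There were 901 wide regions and 35123 narrower shared intervals, so these shares cannot be set against each other. Of the 9, 3 belong to coding genes, namely Aebp2, Cbx5 and H3c4, and 6 to long non-coding RNA genes. The upstream parts of 4 of them are printed, since these are the stretches inside wide regions where the bases under the signal can be read. They are the 3 coding genes and the long non-coding RNA gene with the highest fold enrichment, and were chosen after their values were seen. All are on the gene's own strand, 5′ to 3′, from RefSeq on GRCm38.p6, and capitals mark AATA and its reverse complement TATT.
Aebp2, chr6:140622413-140622662, plus strand: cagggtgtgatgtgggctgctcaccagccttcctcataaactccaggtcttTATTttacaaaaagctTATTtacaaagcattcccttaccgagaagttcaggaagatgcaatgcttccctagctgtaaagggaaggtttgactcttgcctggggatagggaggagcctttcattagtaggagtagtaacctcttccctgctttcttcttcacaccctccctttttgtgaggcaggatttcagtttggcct
Cbx5, chr15:103215353-103215602, minus strand: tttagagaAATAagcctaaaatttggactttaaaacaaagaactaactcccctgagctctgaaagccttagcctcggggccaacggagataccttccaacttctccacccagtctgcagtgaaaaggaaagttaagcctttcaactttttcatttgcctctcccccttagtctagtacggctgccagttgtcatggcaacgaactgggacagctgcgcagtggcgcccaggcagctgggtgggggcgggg
H3c4, chr13:23575513-23575762, plus strand: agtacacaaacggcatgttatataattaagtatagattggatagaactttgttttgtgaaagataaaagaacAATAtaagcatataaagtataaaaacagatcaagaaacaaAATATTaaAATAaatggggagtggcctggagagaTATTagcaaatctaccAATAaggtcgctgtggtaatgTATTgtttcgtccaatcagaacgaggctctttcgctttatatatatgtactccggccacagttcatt
Gm32960, chr19:38348450-38348699, plus strand: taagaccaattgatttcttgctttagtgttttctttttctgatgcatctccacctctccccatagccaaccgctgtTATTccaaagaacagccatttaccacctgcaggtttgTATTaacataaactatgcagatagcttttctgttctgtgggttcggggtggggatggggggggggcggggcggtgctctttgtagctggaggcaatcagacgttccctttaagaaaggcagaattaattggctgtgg

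The wide region at Gm32960 spanned chr19:38348008-38349187, with widths of 1180 and 1230 bp in replicates 1 and 2. Its fold enrichments over the local background were 33.1 and 31.3, and its strongest summit lay inside the printed stretch, 196 and 190 bp from the start. At Cbx5, which encodes the heterochromatin protein HP1 alpha, the region was 941 and 946 bp wide with fold enrichments of 12.0 and 10.6. Its strongest summits lay 150 and 162 bp from the transcription start, again within the printed bases. Aebp2 encodes a cofactor of the Polycomb complex PRC2. Its region was 1111 and 1030 bp wide, with fold enrichments of 19.3 and 16.999, and the strongest summits lay 410 and 421 bp from the start, outside the printed bases. H3c4 encodes a replication-dependent histone H3 and belongs to a multigene family whose copies are close in sequence, so the placing of fragments there is uncertain. Its region was 930 and 881 bp wide with 5 and 4 summits, and the fold enrichments of 9.64 and 8.16 were low for a wide region. The strongest summits lay 30 and 296 bp from the start, so that of replicate 1 lay within the printed bases and that of replicate 2 outside them.

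The full windows of these 4 genes differed in composition. A and T made up 65.3% of the H3c4 window, 53.3% of the Gm32960 window, 52.0% of the Aebp2 window and 45.3% of the Cbx5 window. AATA or TATT occurred 7 times in the H3c4 window and 3, 2 and 1 times in those of Gm32960, Aebp2 and Cbx5. All 9 windows that overlap wide regions held at least 1 of these 4-letter runs on either strand. Of the 918 windows in narrower shared intervals 78.0% did, and of all 31396 windows 63.7%. The longer ATATT and its reverse complement AATAT, which contain TATT and AATA, were in 3 of the 9 windows (33.3%), in 26.6% of the narrower ones and in 24.7% of all windows. The median A+T content was 53.3% in the 9 windows (40.3 to 65.3%), 47.3% in the 918 and 47.0% in all. The windows only overlap the regions, and at Gm33538 39 of the upstream bases lay inside, so these values include bases outside. With 9 windows they are descriptions only.

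The wide regions had a median width of 983 bp in replicate 1 and 973 bp in replicate 2. The middle 50% ran from 887 to 1130 bp and from 875 to 1144 bp, and the widest reached 4431 and 4709 bp. Against this, the median autosomal interval was 220 and 228 bp wide. At 1000 bp or more in both replicates there remained 294 regions, at 1500 bp 26 and at 2000 bp 3. Together the 901 regions covered 948 kb, which is 6.48% of all autosomal sequence called in replicate 1. Most regions are thus close to 1 kb, and regions past 2 kb were exceptional.

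**Figure D1:**
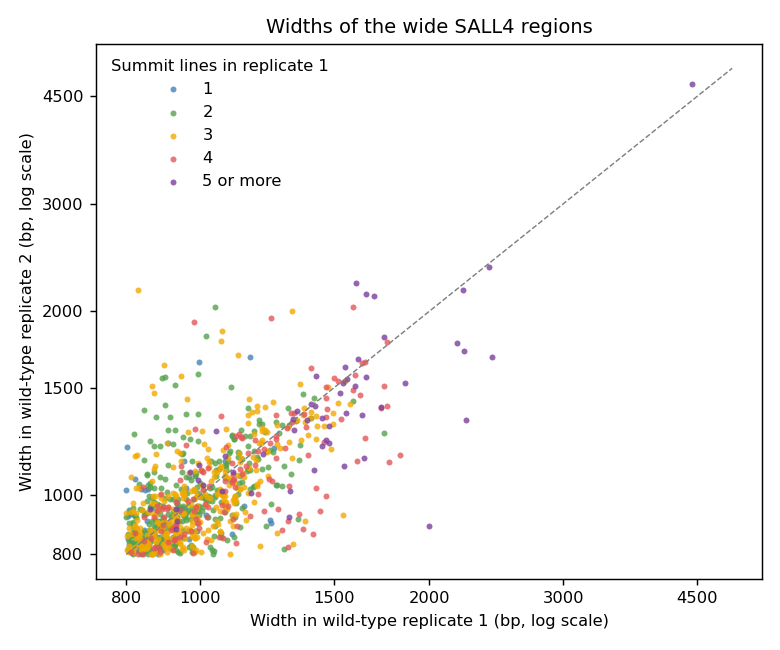
Width of each of the 901 regions in wild-type replicate 1 (horizontal) against replicate 2 (vertical), both in bp on log axes, with 1 point per region coloured by its number of summit lines in replicate 1; the dashed line marks equal widths. Most points sit between 800 and 1500 bp, and a single region near 4500 bp stands apart in both replicates.

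The replicates placed most of the regions alike, in part because the rule keeps only wide intervals that overlap in both lists. The 434 wide intervals of replicate 1 without a wide partner are not counted here. The shared part made up a median of 89.8% of the stretch covered by either replicate, and the strongest summits lay a median of 28 bp apart. They were within 100 bp of each other in 692 of 901 regions (76.8%, 95% Wilson interval 73.9 to 79.4). Of the 2539 summits in replicate 1, 76.5% had a replicate 2 summit within 100 bp. A replicate 2 summit could match more than 1 of them, and no level for summits placed at random was computed. Across the 901 regions Spearman's rho between replicates was 0.628 for width and 0.862 for fold enrichment, which describe regions that share 2 libraries and are not independent. Width was cut at 800 bp by the rule and fold enrichment was not, so the values of rho cannot be set against each other. Replicate 2 was the wider in 403 regions and the stronger in 295.

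Inside the regions, the signal was made of several maxima. In replicate 1, 842 of 901 regions (93.5%, 91.6 to 94.9) held 2 or more summit lines, and in replicate 2 815 of 902 did (90.4%, 88.3 to 92.1). In narrower shared intervals, those under 800 bp in both lists and off the knockout intervals, the shares were 13.9% of 35123 and 11.7% of 34828. A wide interval has more room for summits, so this contrast comes partly with the rule. By number, 59 regions had 1 summit line in replicate 1, 331 had 2, 316 had 3, 141 had 4 and 54 had 5 or more. The median width was larger with more lines, from 893 bp with 1 line to 1470.5 bp with 5 or more. Only 346 regions had the same number of lines in both replicates, and 21 had a single line in both.

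The maxima within 1 region were unequal and set apart. Adjacent summits lay a median of 259 bp apart in replicate 1 (middle 50% 172 to 399 bp) and 265 bp in replicate 2. In narrower shared intervals with several summits they lay 161 and 163 bp apart. The first and last summit of a region were a median of 530.5 and 515 bp from each other. The weakest summit of a region had a median of 43.1% of the fold enrichment of its strongest in replicate 1 and 44.4% in replicate 2. In the narrower intervals it had 71.2 and 72.3%. Intervals under 800 bp have less room between summits and fewer of them, so these contrasts too come partly with the rule. The strongest summit lay in the middle 50% of the interval in 683 of 901 regions.

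The widest region of all lay at chr5:32709152-32713582 and was 4431 and 4709 bp wide, with 19 and 17 summit lines. Its summit lay in no annotated gene, and its edge was 6809 bp from the pseudogene Gm2420. Its strongest fold enrichments of 16.98 and 16.3 ranked 664th and 618th of the 901, so the widest region was not among the strong ones. No single summit leads there, and the lines are spread over the whole interval in both replicates. The next was chr11:23095111-23097509, 2399 and 2367 bp wide, in the long non-coding RNA gene Gm39610. It had 7 and 4 summit lines and fold enrichments of 27.9 and 30.2.

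A region 288 bp from Phc1, which encodes a subunit of the Polycomb complex PRC1, was 2217 and 2169 bp wide. It lay at chr6:122340515-122342731, with 8 summit lines in each replicate and fold enrichments of 19.6 and 17.1, and its strongest summit lay 1967 bp from the gene. All 8 replicate 1 summits had a replicate 2 summit within 100 bp. A replicate 2 summit could match several of them and the lines are dense, so the match does not measure how exactly they were placed. On chromosome 18, a region at 24069044 to 24071459 near the pseudogene Gm18085 was 2416 bp wide in replicate 1 and only 1685 bp in replicate 2, with 9 and 6 summit lines. The fifth, at chr3:88571316-88573488 and 1591 bp from Ubqln4, a gene for a ubiquitin-binding shuttle protein, was 2173 and 1773 bp wide with 5 summit lines in each. Next to these, 2 other regions were rich in summits. The one in the coding gene Gm38396 (chr17:17194477-17196709) had 9 and 5 lines, and the one nearest the long non-coding RNA gene Gm41239 (chr14:105859108-105860710) had 6 and 7.

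**Figure D2:**
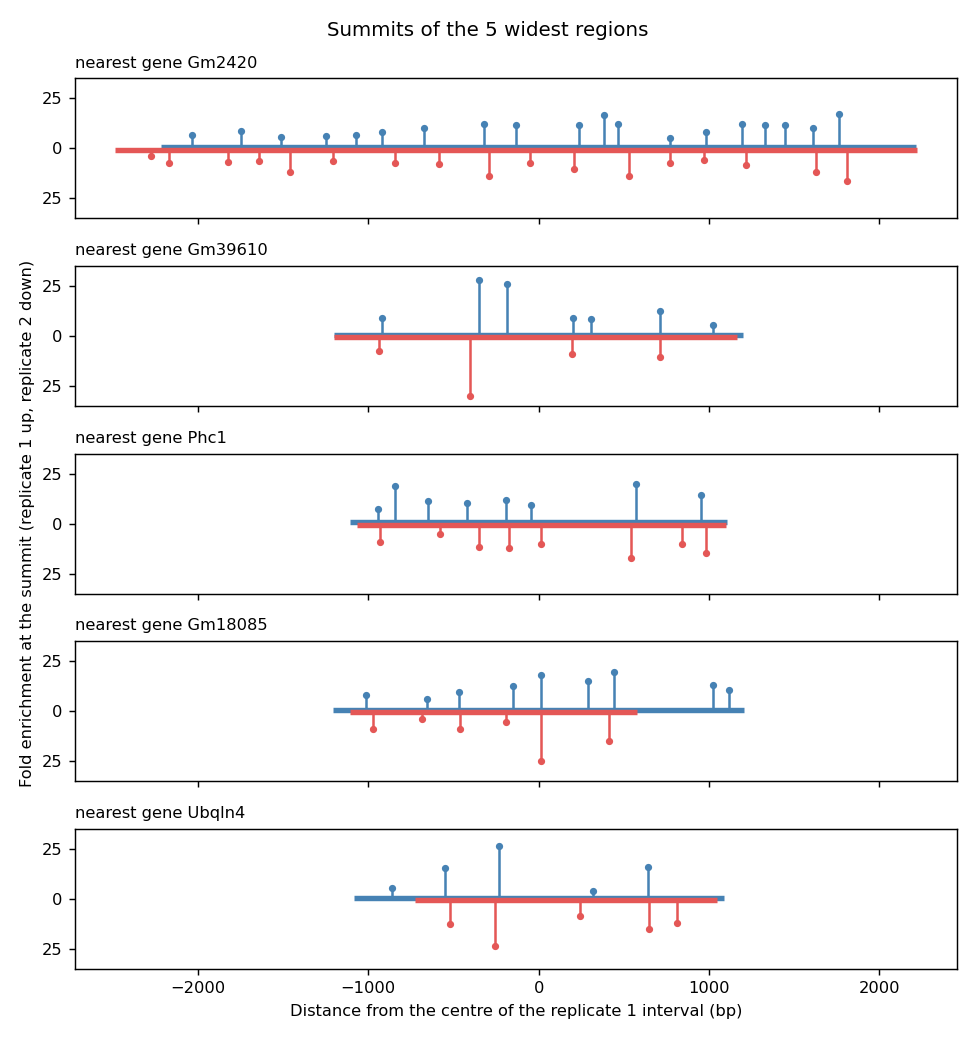
Summits of the 5 widest regions, named by their nearest gene, by distance from the centre of the replicate 1 interval in bp (horizontal) and deposited fold enrichment (vertical; replicate 1 upward in blue, replicate 2 downward in red, thick bars showing each interval). The Gm2420 region holds 19 and 17 lines with none above 16.98, while the Gm39610 region has its strongest lines of 27.9 and 30.2 to the left of the centre.

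Values near the threshold were continuous across it. The regions just inside, at 800 bp in replicate 1, lay near Lilra5, in Emc2 and in Glis3. They were 935, 1021 and 920 bp wide in replicate 2, with replicate 1 fold enrichments of 27.9, 7.11 and 21.4. Just outside, intervals of 799, 799 and 798 bp nearest Gm20762, Hnrnpr and Rai14 were 911, 1044 and 879 bp wide in replicate 2, with replicate 1 fold enrichments of 18.8, 39.3 and 11.6. A further 434 replicate 1 intervals were 800 bp or more but had no wide partner. Each of them overlapped a replicate 2 interval, the widest of which had a median of 681 bp, and 104 of them met 2 or more shorter intervals there. The class is therefore bounded by the threshold and not by a gap in the widths.

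Wide regions were strong. Their median fold enrichment was 21.9 in replicate 1 (range 5.12 to 49.4) and 20.6 in replicate 2 (5.38 to 49.0), against 6.89 and 6.12 in narrower shared intervals. The summit pileup, the number of overlapping fragments recovered from the deposited values, had a median of 36 and 34 fragments against 10 and 10. Width and strength share their source in a peak caller, and over all autosomal intervals their Spearman's rho was 0.682 and 0.649. Within the wide regions, where the rule cuts the range of widths, rho was 0.193 and 0.123. Of the 901 regions, 356 were among the 1000 strongest autosomal intervals of replicate 1, and 826 narrower shared intervals were at least as strong as the median wide region. The recovered local background stood above its lowest level at 63.8% of the wide regions and 57.8% of narrower ones in replicate 1, and at 63.9 and 57.8% in replicate 2. Between the quartiles of the wide regions' fold enrichment the shares were 64.8 and 53.9% in replicate 1 and 67.9 and 58.4% in replicate 2. The part of that difference in the results was not tested.

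The 5 regions with the best rank of fold enrichment in both replicates were of ordinary width for the class. The region in Gm33169 (chr3:9654318-9655204) was 887 and 830 bp wide and had 1 summit line in each replicate. That in 4930500H12Rik (chr16:73096249-73097353) was 1105 and 981 bp wide, with 3 and 3 lines. Those nearest Gm11189, Ndufs4 and Gm18522 were 1219 and 1271, 1032 and 993, and 884 and 901 bp wide. Their fold enrichments ran from 44.8 to 49.4 in replicate 1 and from 41.9 to 49.0 in replicate 2. None was among the 5 widest.

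Other SALL4 intervals lay close by. The next interval of the same list was a median of 1015 bp from the edge of a wide region in replicate 1 and 1346.5 bp in replicate 2. For narrower shared intervals it was 3343 and 4133 bp away. A neighbour within 1 kb was present for 49.8% of wide regions in replicate 1 (95% Wilson interval 46.6 to 53.1) and 28.8% of narrower intervals (28.4 to 29.3). In replicate 2 the shares were 43.9% (40.7 to 47.2) and 24.8% (24.4 to 25.3). The intervals did not overlap in either replicate, and the median distance was shorter for wide regions in 19 of 19 chromosomes. From summit to summit the medians were 1706 and 3632 bp in replicate 1. With lines at a −log10 q-value of at least 10 alone, the medians from edge to edge were 6629 bp for wide regions and 14209 bp for narrower ones.

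Both classes were also limited to fold enrichments between the quartiles of the wide regions, 16.5 to 27.7 in replicate 1. In this common range, 457 wide regions had a median distance of 1092 bp and a neighbour within 1 kb in 47.3% (42.7 to 51.8). The 2336 narrower intervals had a median of 1884.5 bp and a neighbour within 1 kb in 37.4% (35.5 to 39.4). The difference was smaller than over the whole classes, and the intervals of the shares did not overlap. Within the range the wide regions were still the stronger, with medians of 21.8 and 19.3. Wide regions were seldom close to each other. The median distance from 1 wide region to the next was 561 kb, and 831 of 901 had no other within 10 kb.

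**Figure D3:**
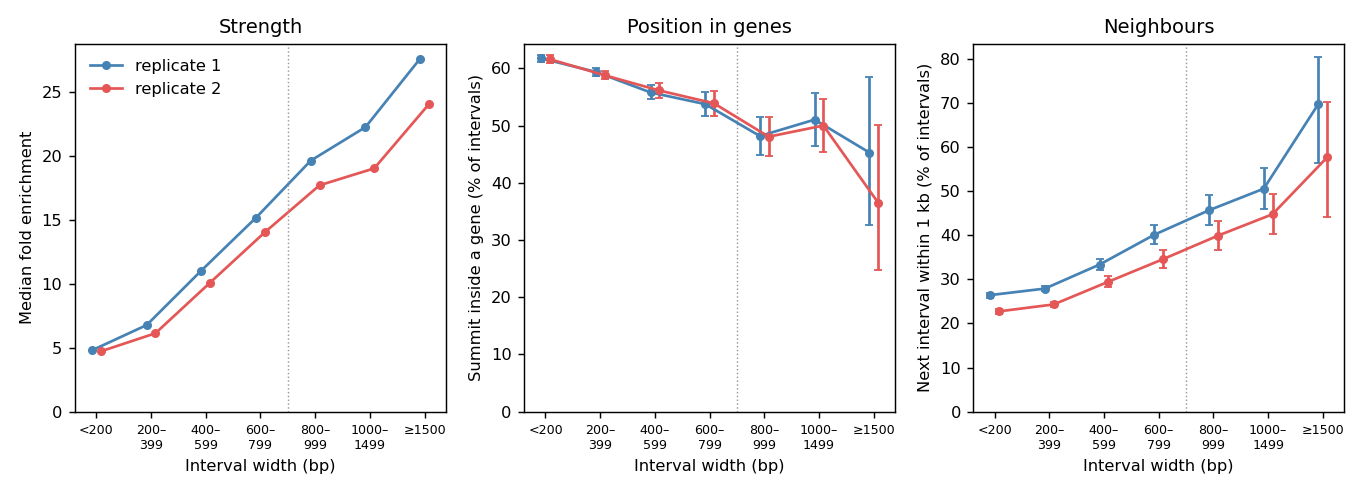
Median fold enrichment (left), share of summits inside a gene (middle) and share with the next interval within 1 kb (right) by interval width in bp, over all autosomal intervals of wild-type replicates 1 (blue) and 2 (red); bars are 95% Wilson intervals and the dotted line marks 800 bp. Wider bins have stronger summits and more close neighbours, and the share inside genes in replicate 1 is 61.8% under 200 bp, 53.7% in the last bin below 800 bp, 48.2% in the first above it and 51.0% in the next.

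Wide regions were placed in genes less often than narrower ones. The strongest summit lay inside an annotated gene in 421 of 901 regions in replicate 1 (46.7%, 43.5 to 49.99) and in 58.5% of narrower shared intervals (58.0 to 59.0). Read from replicate 2, the shares were 46.6% (43.3 to 49.8) and 58.5% (58.0 to 59.0). For coding genes alone they were 38.5% (35.4 to 41.7) and 50.02% (49.5 to 50.5) in replicate 1. The share was lower for wide regions in 19 of 19 chromosomes, where it ran from 30.0% on chromosome 14 to 58.0% on chromosome 2. In the common range of fold enrichment, 46.6% of wide regions (42.1 to 51.2) and 54.4% of narrower intervals (52.4 to 56.4) were inside a gene. Intervals wide in replicate 1 only were inside a gene in 53.7% (49.0 to 58.3), and their interval meets that of the wide regions.

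The types of the nearest gene differed in share over the whole classes. It was a coding gene for 58.2% of wide regions (54.9 to 61.3) and 67.5% of narrower intervals (67.0 to 68.0) in replicate 1, and lower for wide regions in 13 of 19 chromosomes. Among the 294 regions of 1000 bp or more in both replicates it was 63.3%, against 67.3% of intervals below that width. It was a pseudogene for 16.0% (13.7 to 18.5) against 9.40% (9.10 to 9.71). It was a gene for a small RNA for 4.88% (3.66 to 6.49) against 2.48% (2.32 to 2.64). For long non-coding RNA genes the shares of 20.6% (18.1 to 23.4) and 20.4% (19.95 to 20.8) had overlapping intervals. Replicate 2 gave 58.3, 15.9, 4.88 and 20.6% for the wide regions. In the common range of fold enrichment, 62.4% of wide regions (57.8 to 66.7) and 65.9% of narrower intervals (63.9 to 67.8) had a coding neighbour, and these intervals overlap. A pseudogene was nearest in 14.0% (11.1 to 17.5) and 11.1% (9.92 to 12.5), and a gene for a small RNA in 3.94% (2.51 to 6.14) and 3.08% (2.45 to 3.86). These intervals overlap as well.

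Gene ends and transcription starts were rarely met. A gene end here is either boundary of a gene, so it includes starts, as the strand of genes was not given. Summits lay less than 1 kb from a gene end in 6.10% of wide regions (4.72 to 7.86) and 8.81% of narrower intervals (8.52 to 9.11). In the common range of fold enrichment the shares were 4.81% (3.20 to 7.18) and 6.72% (5.77 to 7.81), and these intervals overlap. With the narrower intervals alone limited to that range, the shares were 6.10% and 6.72%. Within 1 kb of a transcription start lay 13 of 867 wide regions off chromosome 18, or 1.499% (0.878 to 2.55), against 4.47% (4.25 to 4.69). In the common range it was 3 of 442, or 0.679% (0.231 to 1.98), against 2.64% (2.05 to 3.39). In replicate 2 it was 4 of 438, or 0.913% (0.356 to 2.32), against 2.57% (1.98 to 3.32), with overlapping intervals. The median distance to a start was 32.1 kb for wide regions and 26.0 kb for narrower ones.

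**Figure D4:**
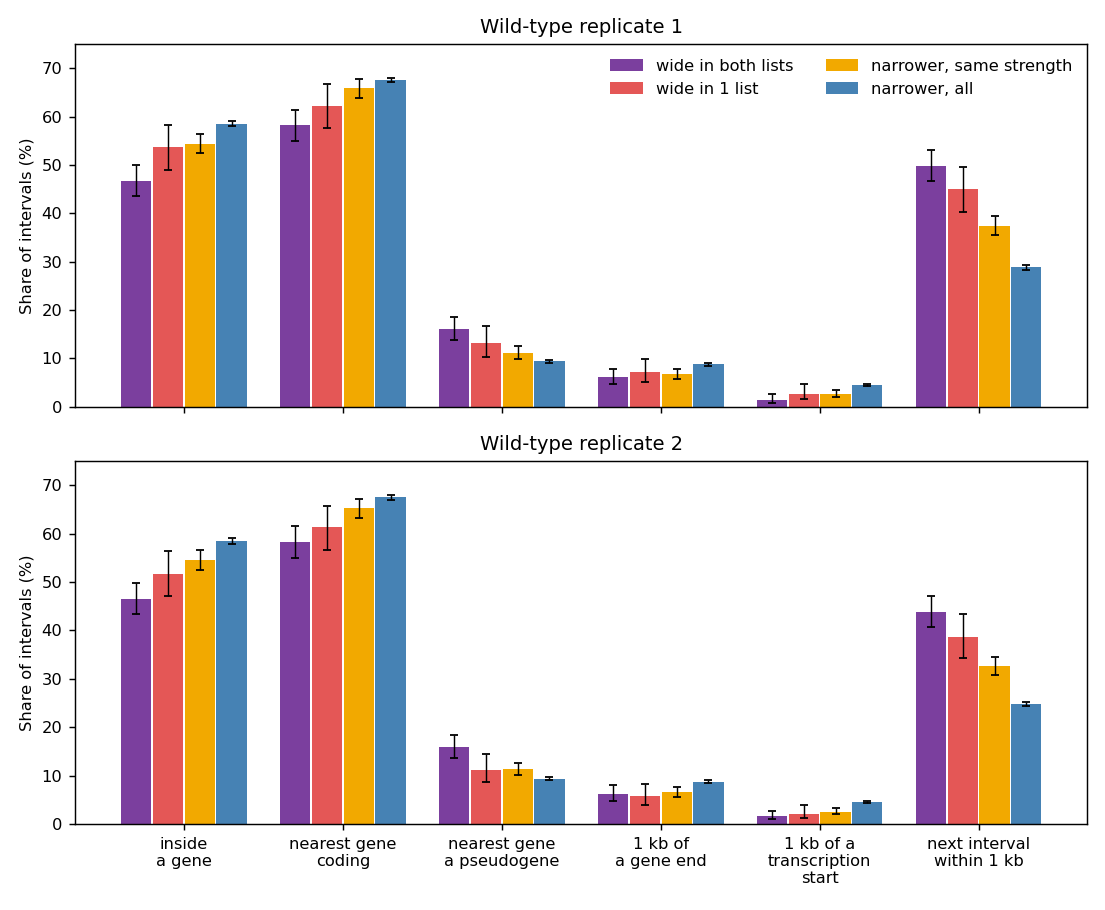
Share of intervals in % with each feature (horizontal) in wild-type replicate 1 (top) and 2 (bottom), for regions wide in both lists, wide in 1 list, narrower with fold enrichments between the quartiles of the wide regions, and all narrower shared intervals; bars on the columns are 95% Wilson intervals. Wide regions stand lowest inside genes (46.7 and 46.6%) and highest for a neighbour within 1 kb (49.8 and 43.9%).

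Of 20661 coding genes on the autosomes, 502 (2.43%) had a wide region in the gene or within 10 kb, while 42.6% had a narrower shared interval there. The classes differ in size, with 901 and 35123 intervals. The shares were 1.61% for long non-coding RNA genes and 1.04% for pseudogenes. The share was higher for longer genes, from 0.872% of coding genes under 10 kb to 14.5% of those of 300 kb or more. Per Mb of gene and flank there were 0.388 wide regions in the shortest class, 0.398, 0.440 and 0.411 in the next 3 and 0.309 in the longest. In 6 lists of regulators written for this tissue, 12 of 117 genes found had a wide region (10.3%), beside 2.43% of all coding genes. The excess was not particular to wide regions, as 86 of the 117 had a narrower shared interval, beside 8793 of 20661 coding genes. The listed genes are longer, with a median of 29515 bp against 17491 bp, and per Mb of gene and flank they had 0.594 wide regions against 0.391. The lists were chosen with results of these data known, so their counts are no independent evidence.

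The pluripotency list had 3 of 17 genes with a wide region, namely Nanog, Esrrb and Rif1. Nanog encodes the homeodomain factor of the naive state. Its region lay 3945 bp from the gene at chr6:122702414-122703544 and was 1131 and 1151 bp wide with 3 summit lines in each replicate. Its fold enrichments were 19.2 and 15.5. Esrrb encodes an orphan nuclear receptor that acts in the same network. Its region lay inside the gene at chr12:86501048-86501968, was 921 and 1112 bp wide, and had fold enrichments of 28.9 and 25.2. Rif1 encodes a chromatin protein that acts in replication timing. Its region lay 482 bp outside the gene at chr2:52071161-52072333, was 1173 and 1155 bp wide, and had fold enrichments of 16.8 and 11.5. Sox2 had 6 narrower shared intervals and no wide region.

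Of the 19 signalling genes, 2 had a wide region, and they encode the 2 chains of the LIF receptor. At Lifr, the ligand-binding chain, it lay inside the gene at chr15:7115637-7117331. It was 1695 and 2121 bp wide with 5 and 6 summit lines, and its fold enrichments were 19.3 and 26.2. At Il6st, which encodes the signal-transducing chain gp130, it lay 920 bp outside the gene at chr13:112462235-112463150. It was 916 and 818 bp wide with fold enrichments of 19.8 and 17.9. The Lifr region was the widest at any listed gene, and the Il6st region was near the threshold in replicate 2.

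Among 14 chromatin genes, 2 had a wide region. Tet2 encodes an enzyme that oxidises methylated cytosine, and its region inside the gene (chr3:133524126-133525246) was 1121 and 1175 bp wide with fold enrichments of 23.4 and 27.1. Jarid2 encodes a cofactor of PRC2, and its region 1855 bp outside the gene (chr13:44728113-44728919) was 807 and 837 bp wide with fold enrichments of 26.7 and 20.6. Of 16 genes of the SALL family and NuRD, Sall3 alone had a wide region. It lay inside the gene on chromosome 18 at 80982178 to 80983197 and was 1020 and 994 bp wide, with fold enrichments of 18.3 and 19.7. None of the 20 mesoderm, endoderm and trophoblast genes had one, and 8 of them had a narrower shared interval. These genes are short, with a median of 7256 bp, and the shares of all coding genes were 2.43% and 42.6%, so the count is near the background.

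The neural list had 4 of 31 genes with a wide region, all inside the gene. Of these, 3 are described here. Sox5 and Sox6 encode related HMG-box factors, and their regions (chr6:144251009-144252015 and chr7:115865733-115866662) were 1007 and 1095 bp and 930 and 894 bp wide. Their fold enrichments were 17.2 and 18.4 at Sox5 and 22.4 and 22.1 at Sox6. Ncam2, for a neural adhesion molecule, held one at chr16:81480621-81481616 that was 996 and 960 bp wide, with fold enrichments of 29.0 and 28.2. These genes are long, with a list median of 206 kb. Per Mb the neural list had 0.273 wide regions. The other lists had 3.58 (pluripotency), 1.66 (signalling), 1.15 (chromatin), 1.07 (SALL family and NuRD) and 0 (mesoderm, endoderm and trophoblast), beside 0.391 for all coding genes, and each rests on at most 4 regions.

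**Figure D5:**
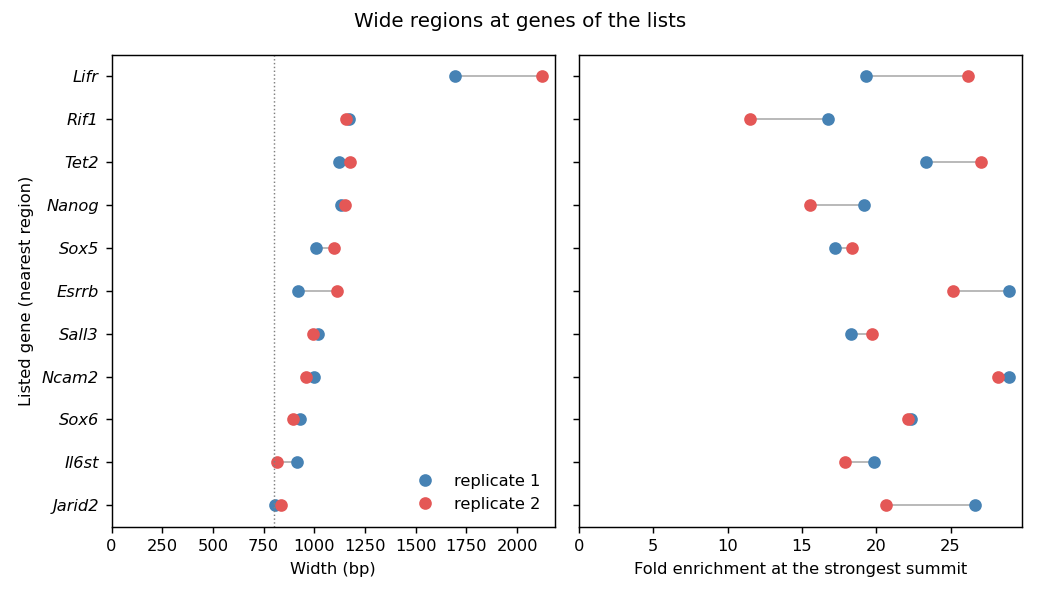
Width in bp (left) and deposited fold enrichment at the strongest summit (right) of the wide region nearest to each of 11 listed genes that had one, ordered by mean width, with wild-type replicate 1 in blue and replicate 2 in red; the dotted line marks 800 bp. Lifr has the widest region (1695 and 2121 bp), and Jarid2 (807 and 837 bp) sits next to the threshold.

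Several wide regions were met by 1 gene with 4, 7 genes with 3 and 58 genes with 2. Utrn, which encodes the dystrophin relative utrophin, held 4 in its 488 kb on chromosome 10. The widest of them was 983 and 1919 bp wide, and fold enrichments over the 4 ran from 15.2 to 31.0 in replicate 1 and from 19.7 to 37.4 in replicate 2. Palld, which encodes the actin-associated protein palladin, held 3 in its 391 kb, with replicate 1 fold enrichments from 13.5 to 19.3. The long non-coding RNA gene Gm30687 held 3 in its 212 kb, the widest 1559 and 1552 bp wide. Ifitm1, for an interferon-induced membrane protein, is only 2399 bp long and had 3 within 10 kb, 2 of them nearer to its neighbour Ifitm2. The one with its strongest summit inside Ifitm2 was 2000 bp wide in replicate 1 and 889 bp in replicate 2. Deptor, for an inhibitor of mTOR, had 3 within 10 kb and none inside its 147 kb. The others with 3 were Dlgap1, for a postsynaptic scaffold protein, the small RNA gene Gm26296, which met the same 3 regions as Deptor, and the pseudogene Gm4325.

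By chromosome, wide regions numbered from 27 on chromosome 19 to 72 on chromosome 1. Per 1000 autosomal intervals of replicate 1 they ranged from 12.2 on chromosome 2 to 23.4 on chromosome 10. The other chromosomes lay between 14.1 and 19.9.

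The comparison of genotypes asked how many wide intervals were called without SALL4. On the autosomes the wild-type lists held 1335 and 1339 intervals of 800 bp or more and the knockout lists 0 and 0. Width and absence from the knockout chose the regions, so these counts are given without a test. The knockout lists did hold 5 and 3 intervals of 800 bp or more, out of 34 and 39, all on X and Y. On the same chromosomes the wild-type lists held 67 and 73. As absence from the knockout is part of the rule and the knockout lists held no autosomal interval, that condition removed none of the regions.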

How the data were processed

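The members and gene lists were chosen with earlier results of these data known. Each peak list was called by the authors on 1 sample. The submitters' processing notes name Trim Galore 0.6.0, cutadapt 1.18, FastQC 0.11.8, BWA 0.7.17 and MACS2 2.1.1.20160309 and the builds GRCm38 and mm10, and settings are not given in the sources used here. In the deposited lists the score holds 10 times the −log10 q-value cut to a whole number, the fold enrichment is a ratio of summit to local background, and the −log10 p-value and −log10 q-value are the authors' own. Fold enrichments of different lists were scaled separately.

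Overlapping lines of a list were merged, and the highest fold enrichment and its summit were kept. Overlaps needed 1 bp. Genes came from a RefSeq table of GRCm38.p6 with no strand or exons, and transcription starts from its promoter windows, which lack chromosome 18. The nearest gene was taken from the strongest summit, coding genes and then shorter ones first where several held it. Summit pileups were recovered from fold enrichment and Poisson p-value with a pseudocount of 1, within 0.0001 in −log10 p for 100% of lines of each list. Over all lines the median pileup was 9 fragments in each wild-type list and the lowest 4, and read totals were not used here. The steps were tested on simulated lists. Wilson intervals at 95% cover counting error only, and neighbouring regions are not independent.

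Regions named in the text are the 5 widest, the 5 best ranked in both replicates, the 5 with most summit lines, those next to the threshold, those nearest to listed genes, and the genes with most wide regions, where 7 tied at 3. The promoter regions, the neighbouring groups and the regions with least overlap or fold enrichment were named after their values were seen. Of 121 listed genes 117 were found on the autosomes. The values at 1 listed gene with a wide region are not reported here. Alternatives covered width, overlap, q-value, strength, distances, gene types, each library left out and the replicate number as a block. Distances from a region to a gene run from the interval's edge unless a summit is named. Transcription starts in place of gene ends, and a common range of fold enrichment for both classes, were alternatives added after seeing the data. Scripts ran in Python 3.11.15 with numpy 2.4.6, pandas 2.3.3, scipy 1.17.1 and matplotlib 3.10.9.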

Additional observations from a re-analysis of the deposited data

How the results depend on the processing

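The knockout lists held no autosomal interval, so no setting limited to the autosomes could turn the direction of the wild-type excess in wide intervals. The size of that excess depends on the pseudocount of 1. The log2 difference of 10.39 ran from 8.17 with X and Y counted too to 11.06 at a width of at least 700 bp. It ranged from 10.38 to 10.39 with 1 library left out and was 10.39 blocked on the replicate number. With 1 value per library, no check of the pairing could be made.

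The number of regions, 901, was 1491 at 700 bp and 294 at 1000 bp, by construction, and 901 to 1339 with 1 library left out. With both classes in the common range of fold enrichment, the differences in percentage points were -7.80 inside a gene, -1.91 near gene ends and -3.52 for a coding neighbour, the ratio of median distances was 0.579 and the difference in the share with 2 or more summits 62.2. In the values that follow, like strength limits the narrower intervals alone. None of the differences listed in this section changed direction. The share with a long non-coding RNA gene nearest, not among them, did in replicate 1. It was 20.6% against 20.4% over the whole classes and 19.5% against 19.7% in the common range. The share inside a gene, lower by 11.8 percentage points (-11.8), was -10.2 at 700 bp, -9.23 at 1000 bp, -11.2 with a reciprocal overlap of 50%, -9.55 at a −log10 q of at least 10, -7.68 at like strength and -11.2 to -10.8 with a wild-type list left out. The share near gene ends (-2.70) was -3.31, -1.57, -1.83 at that q-value and -0.617 at like strength, -1.38 within 500 bp, -3.46 within 3 kb, -2.54 for coding genes and -2.97 for transcription starts, with -2.81 to -2.60 for 1 list left out. The share with a coding neighbour (-9.38) was -9.09, -4.01, -9.11 with reciprocal overlap, -7.77 and -7.72 in the same order, and -9.07 to -9.05 for 1 list.

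The ratio of median distances (0.304) was 0.261 at 1000 bp, 0.467 at the strict q-value, 0.539 at like strength, 0.470 from summit to summit and 0.314 to 0.357 for 1 list. The difference in the share with 2 or more summits (79.5) was 75.5 at 700 bp, 83.2 at 1000 bp, 58.5 at the strict q-value, 60.4 at like strength and 76.4 to 78.6 for 1 list. The share of promoter windows with AATA or TATT was 22.0 percentage points higher in wide regions than in narrower intervals, and that with ATATT or AATAT 6.75 points higher. The cause of these shifts was not tested. The planned window around summits was not run, as no genome sequence was used here. Summits rest on few fragments, which limits how finely lines and edges can be placed.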

Other observations

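Wide regions that did come close to one another formed 33 groups within 10 kb, with 70 regions in all. The largest, of 4 regions, spanned 17598 bp at chr6:93589380-93606977, in no annotated gene and nearest to the pseudogene Gm7812. Another group held 3 regions within 5891 bp at chr15:55262591-55268481, beside the small RNA gene Gm26296 and next to Deptor. Its replicate 1 fold enrichments were 37.0, 30.4 and 15.3. A further one held 3 regions within 9156 bp at chr17:38007696-38016851 near the pseudogene Gm4325, with replicate 1 fold enrichments of 28.2, 29.5 and 38.6 and replicate 2 values of 21.8, 39.4 and 38.1.

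Genes known only by a predicted-gene number of the form Gm were the nearest gene of 35.1% of wide regions (95% Wilson interval 32.0 to 38.2) and 26.2% of narrower intervals (25.7 to 26.7). For olfactory receptor genes (Olfr) the shares were 0.555% (0.237 to 1.29) and 0.370% (0.312 to 0.439), for vomeronasal receptor genes (Vmn) 0.444% (0.173 to 1.14) and 0.253% (0.206 to 0.312), and for Zfp genes 1.44% (0.845 to 2.45) and 1.32% (1.21 to 1.45). The intervals of the last 3 overlapped between the classes. These shares are over the whole classes in replicate 1, and none was computed in the common range of fold enrichment. Of 919 miRNA hairpins on the autosomes, none overlapped a wide region and 4 lay within 10 kb of one.

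A few regions met the rule with little in common between the replicates. The intervals near Gm39283 (chr8:125699326-125700204 in replicate 1) shared 9.99% of their joint length, with fold enrichments of 31.0 and 6.80 and strongest summits 1059 bp apart. Those nearest Mdfic (chr6:15712704-15713742) shared 11.9%, with fold enrichments of 17.9 and 8.16. The weakest wide region, in the long non-coding RNA gene Gm40261 (chr5:4303433-4304342), had fold enrichments of 5.12 and 5.38 and widths of 910 and 899 bp.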
